A study of Schizosaccharomyces pombe with 8 samples.

Results

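The genes of the RNA polymerase subunits of fission yeast (S. pombe) were taken by name. They are the genes whose symbol, updated with the RefSeq gene table, starts with rpa, rpb or rpc followed by a digit, together with nuc1. The rule gave 30 genes, and 29 of them had a spot of their own among the 4752 genes named on the arrays. The gene nuc1, which encodes the largest subunit of polymerase I, lay only on 2 spots that also list pnu1, so no value is given for it. For rpc34, a subunit of polymerase III, only the arrays of M over P cells gave values. This left 28 subunit genes with a value on all 6 time course arrays, of 4094 such genes in all.

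RNA polymerase I transcribes the large precursor of the ribosomal RNAs, polymerase II transcribes the mRNAs, and polymerase III transcribes tRNAs and other short RNAs. All are built on one plan, in which a pair of large subunits forms the active site, a platform holds the pair together and a stalk binds the emerging RNA. Several small subunits are common to all of the polymerases, and polymerases I and III have further platform subunits in common with each other. In growing yeast most transcription is the work of polymerases I and III, which supply ribosomes and tRNAs.

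M-factor was added to P cells (h+ cyr1-) and P-factor to M cells (h- sxa2- cyr1-, written sax2- in the labels), both at 1 µg/ml during exponential growth in MSL minimal medium. RNA of 2, 4 and 6 h was hybridised against the 0 h RNA of the same culture on 2-channel arrays, 1 array per time point, and a further pair of arrays set M cells against P cells, untreated and after 6 h. In both strains cyr1, the adenylate cyclase gene, is replaced by ura4+ in a ura4-D18 background, which lets cells answer pheromone without nitrogen starvation, and a LEU2 insertion removes silent mating type genes. The M strain also lacks sxa2, which encodes a protease that degrades P-factor, so effects of mating type, of sxa2 and of the pheromone cannot be told apart. Each ratio is relative to the bulk of the genes on its array, and cannot tell less of an mRNA per cell from fewer cells that hold it.

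The marker genes followed the labels, with log2 ratios of M over P cells of 2.15 for mam1 and -2.94 for map2 before treatment. The time points stood in for replicates in the test. All arrays of a course share their 0 h RNA, and no label gives separate cultures. A p-value therefore measures only the spread between these arrays, pooled over both courses and drawn toward that of all genes. Only at 2 h of M-factor did Cy5 label the treated RNA, which carried Cy3 on the other time course arrays. The 2 spots of a subunit gene differed by a median SD of 0.14 to 0.36 (log2) on the time course arrays, and 12 of the 28 genes had 1 spot only at 2 h of P-factor. At 2 h of M-factor rpa49 had 1 spot only. Single arrays correlated across genes with r of 0.72 to 0.79 within the M-factor course and 0.79 to 0.92 within the P-factor course.

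With M-factor, 11 of the 28 subunit genes fell and 4 rose. The fallen genes were spread over polymerase I (rpa49, rpa43, rpa12), polymerase III (rpc11, rpc2, rpc82), the platform subunits of both (rpc40, rpc19), the common subunits (rpb5, rpb6) and polymerase II (rpb1). The risen genes were rpa34 of polymerase I, rpb3 of polymerase II and the common subunit genes rpb8 and rpc10. The fallen genes were 39.3% of the subunit genes, against 23.2% of all genes tested, and the risen genes were 14.3%, against 24.1% (limma, mean of 3 arrays against 0, adjusted p at most 0.05). The median over the 28 genes was a mean log2 ratio of -0.31, where all 4094 genes had a median of -0.02. Without the 2 h M-factor array, which had the other dye order, 13 subunit genes and 41.5% of all genes passed, against 47.2% in the main fit. With the M-factor course fitted alone 11 subunit genes and 34.9% of all genes passed, and rpa12, rpb1, rpb6 and rpc10 did not.

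With P-factor, 6 subunit genes fell (rpc40, rpb6, rpc11, rpb9, rpa49, rpc82) and 2 rose (rpa34, rpb8). These were 21.4% and 7.14% of the subunit genes, against 18.3% and 18.1% of all genes tested, so the share that fell was near that of all genes. The median over the 28 genes was -0.23, against -0.02 for all genes. The size of the changes was also smaller, the median absolute mean over the subunit genes being 0.50 with M-factor but 0.31 with P-factor, where all genes had 0.46 and 0.38. The count with P-factor depended on single arrays, as it was 5, 3 and 3 without the P-factor array of 2, 4 or 6 h. The share of all genes called with P-factor also fell, from 36.4% to 24.4%, 13.4% and 17.6% in these fits. The count of subunit genes was 3 with the values as deposited, where rpa49, rpb6, rpc11, rpc40 and rpc82 did not pass. In that fit 16.8% of all genes were called. With the P-factor course fitted alone the count was 12, where rpa43, rpb10, rpb3 and rpc19 passed too, and 47.8% of all genes were called.

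A group of 7 genes passed the test with both pheromones, or 25.0% against 23.5% of all genes, and each moved in the same direction with both: rpa34 and rpb8 rose, while rpa49, rpb6, rpc11, rpc40 and rpc82 fell. With M-factor alone 8 genes passed (28.6%, against 23.7% of all genes), with P-factor alone only rpb9 passed (3.57% against 12.9%), and 12 passed with neither (42.9% against 39.9%), so the first and last shares were near those of all genes. By the rule of at least 2-fold on each of the 3 arrays, rpa34 and rpb8 were higher with M-factor (4.25% of all genes) and rpc11 and rpc40 lower (2.6% of all genes). By the same rule rpa34 was the only subunit gene higher with P-factor (3.24% of all genes), and none was lower (2.34% of all genes).

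**Figure D1:**
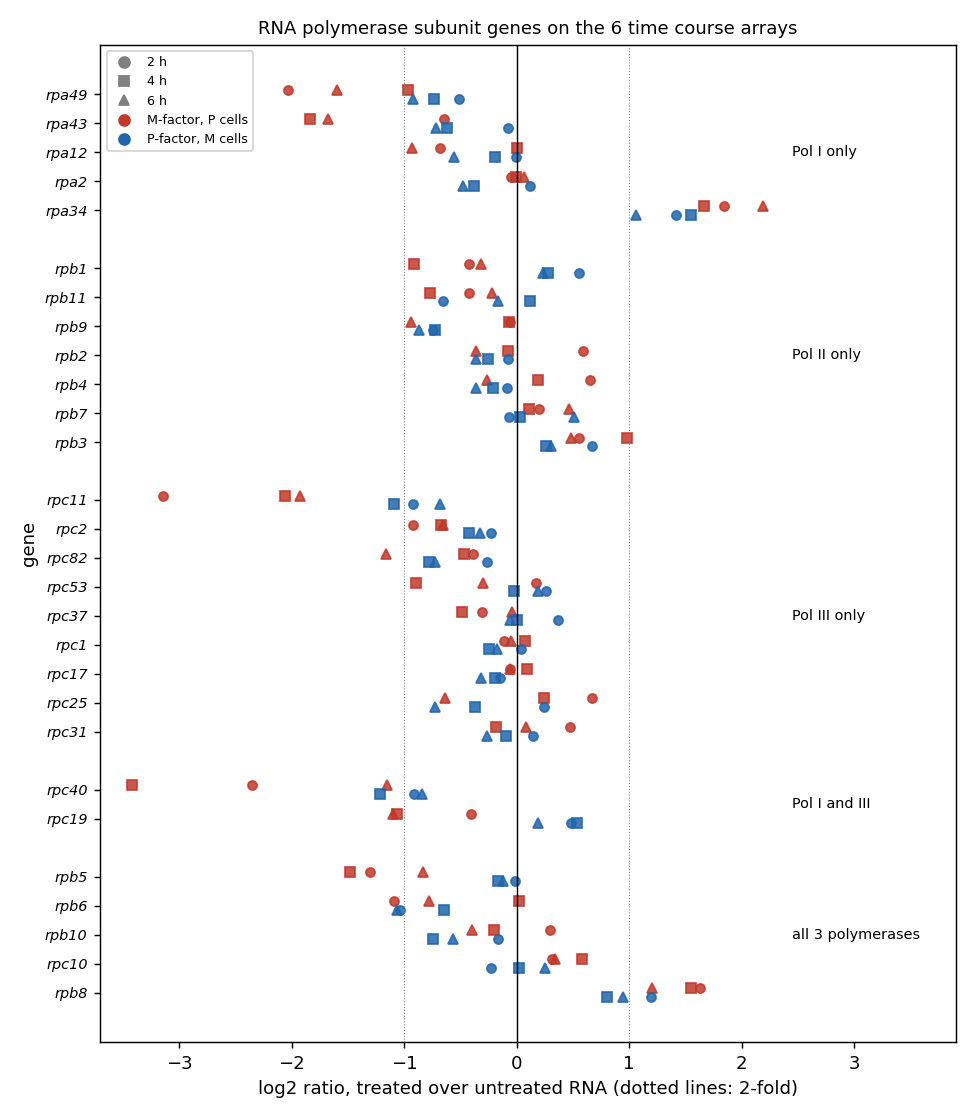
The log2 ratio of treated over untreated RNA (x axis) is plotted for each of the 28 subunit genes (y axis), with 1 point per array, red for M-factor in P cells and blue for P-factor in M cells, and the shape giving 2, 4 or 6 h. The points of rpa34 and rpb8 lie right of 0 on all 6 arrays, those of rpc11 and rpc40 lie left of 0 on all 6, and for rpc19 and rpb5 the red and blue points do not overlap.

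Among the subunits found only in polymerase I, the genes of a single pair of partners moved apart. Rpa34 and Rpa49 form a heterodimer that resembles the initiation factor TFIIF. The log2 ratios of rpa34 were 1.84, 1.67 and 2.19 at 2, 4 and 6 h of M-factor and 1.42, 1.55 and 1.06 with P-factor, all above 1. Its mean was 1.90 ± 0.16 (SE of the fit, n = 3 arrays; limma adjusted p = 5.97e-05) with M-factor, a 3.73-fold rise. With P-factor its mean was 1.34 (limma adjusted p = 0.000552), a 2.53-fold rise, and the SE of a mean is the same for both pheromones. Those of rpa49 were -2.03, -0.97 and -1.60 with M-factor, against -0.51, -0.73 and -0.93 with P-factor, below 0 on every array. Its mean fell by 1.53 ± 0.20 (limma adjusted p = 0.000453) with M-factor and by 0.72 (limma adjusted p = 0.0215) with P-factor. On each array rpa34 lay above rpa49, by 1.92 to 3.87 on the log2 scale. The widest gap was at 2 h of M-factor, where rpa49 had 1 spot only, and rpa34 had 1 spot only at 2 h of P-factor. The fall of rpa49 with P-factor did not pass without the 4 h array (limma adjusted p = 0.108) or the 6 h array of P-factor (limma adjusted p = 0.133), and its spots at 6 h of M-factor read -2.46 and -0.73.

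The genome annotation puts a limit on both of these genes. In the RefSeq table rpa34 lies wholly within the bounds of sme1, and rpa49 wholly within those of sec67, and double-stranded PCR probes do not tell the strands apart. The spots of sme1 itself gave means of 0.40 with M-factor (limma adjusted p = 0.0544) and -0.24 with P-factor (limma adjusted p = 0.242), below the values of rpa34. Those of sec67 gave 1.02 (limma adjusted p = 0.00221) and 0.46 (limma adjusted p = 0.0843), of the opposite sign to rpa49. How much of the signal on either gene's spots comes from its neighbour was not tested, so both values are uncertain.

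The gene of the polymerase I stalk subunit, rpa43, had log2 ratios of -0.64, -1.84 and -1.68 with M-factor, against -0.07, -0.62 and -0.72 with P-factor. The 4 h and 6 h values with M-factor were the lowest of its 6 arrays. Its mean fell by 1.39 ± 0.24 (limma adjusted p = 0.00151) with M-factor, to a level 2.62-fold lower. With P-factor the mean was -0.47 (limma adjusted p = 0.147), which passed with the time point as a block (limma adjusted p = 0.0385) and without the 2 h M-factor array (limma adjusted p = 0.0463). The gene of the RNA cleavage subunit, rpa12, had -0.69, 0.00 and -0.93 with M-factor, with the 4 h array at 0, and -0.01, -0.19 and -0.56 with P-factor. Its fall by 0.54 with M-factor (limma adjusted p = 0.0487) was near the threshold and did not pass without the 2 h or 6 h M-factor array or any 1 of the P-factor arrays (limma adjusted p = 0.0585 to 0.247). The second largest subunit, rpa2, had values near 0 with M-factor (-0.05, 0.00 and 0.07) and 0.12, -0.38 and -0.48 with P-factor, and did not pass with either (limma adjusted p = 0.983 and 0.243).

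Taken as a class, the 5 genes of polymerase I alone had a median of -0.54 with M-factor, where 3 fell and 1 rose, and of -0.25 with P-factor, where 1 fell and 1 rose. Of all genes 23.2% fell with M-factor and 18.3% with P-factor. The polymerase I genes were the most uneven of the classes of 5 or more genes, with an SD over genes of 1.39 with M-factor, or 0.81 with P-factor, against 0.83 and 0.72 over all genes. The genes are few, and leaving out single arrays moved their median between -0.81 and -0.34 with M-factor and between -0.43 and -0.13 with P-factor. Among genes whose spots differed by an SD under 0.5, the median with M-factor was 0.005 for polymerase I and -0.51 for polymerase II. This limit left only rpa12, rpa2 and rpa34 for polymerase I, and rpb1 and rpb11 for polymerase II. The order of these classes turned, but on too few genes to be read as a result.

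Of the 7 subunit genes found only in polymerase II, 1 rose and 1 fell with M-factor, with a median of 0.05, and 0 rose and 1 fell with P-factor, with a median of -0.22. A single gene is 14.3% of them, and of all genes 24.1% rose and 23.2% fell with M-factor, against 18.1% and 18.3% with P-factor, so nothing is read from these counts. The SD over these genes was 0.45 and 0.42, against 0.83 and 0.72 over all genes. For rpb1, whose product is the largest subunit and carries the C-terminal repeat domain, the log2 ratios were -0.43, -0.92 and -0.32 with M-factor, all below 0, and 0.56, 0.28 and 0.24 with P-factor, all above 0. Its mean fell by 0.55 ± 0.16 with M-factor (limma adjusted p = 0.02), a call that was lost without the 4 h M-factor array (limma adjusted p = 0.112). With P-factor it was 0.36 (limma adjusted p = 0.113).

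The platform subunit gene rpb3 had 0.55, 0.98 and 0.48 with M-factor, against 0.67, 0.26 and 0.30 with P-factor, above 0 on every array. It rose by 0.67 ± 0.16 with M-factor (limma adjusted p = 0.0081), or 1.59-fold, while the mean of 0.41 with P-factor did not pass (limma adjusted p = 0.074). The latter passed with the P-factor course fitted alone (limma adjusted p = 0.0403) or without the 4 h M-factor array (limma adjusted p = 0.0498). Its 2 spots differed, reading 1.65 and 0.31 at 4 h of M-factor, and part of the gene overlaps trp3, whose own spots gave 0.80 with M-factor (limma adjusted p = 0.00921) and 0.88 with P-factor (limma adjusted p = 0.00898). The part of trp3 in the value of rpb3 was not tested. Rpb11 is the partner of Rpb3 in the platform, and rpb11 had -0.42, -0.77 and -0.22 with M-factor, against -0.66, 0.12 and -0.16 with P-factor, with means of -0.47 (limma adjusted p = 0.0597) and -0.23 (limma adjusted p = 0.344). The first passed without the 2 h P-factor array (limma adjusted p = 0.0465).

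Rpb9 is the subunit of polymerase II that acts in start site choice and RNA cleavage. The log2 ratios of rpb9 were -0.74, -0.73 and -0.86 with P-factor, and -0.06, -0.07 and -0.94 with M-factor, low only at 6 h. It fell by 0.78 with P-factor (limma adjusted p = 0.0126), a call lost without the 4 h (limma adjusted p = 0.0688) or the 6 h P-factor array (limma adjusted p = 0.0795), and had -0.36 with M-factor (limma adjusted p = 0.146). At 2 h of P-factor it had 1 spot only, and that spot read -0.74, -1.34 and -1.24 at 2, 4 and 6 h. The other spot read -0.11 and -0.49 at 4 and 6 h, so the likeness of the P-factor values over time is uncertain. Part of rpb9 overlaps mid2, with means of -1.01 and -0.85 that did not pass (limma adjusted p = 0.0631 and 0.124). The remaining genes of polymerase II did not pass with either pheromone. The second largest subunit gene rpb2 had means of 0.05 and -0.23, and the stalk genes rpb4 and rpb7 had 0.20 and 0.26 with M-factor, or -0.22 and 0.16 with P-factor. With M-factor rpb2 and rpb4 went from 0.59 and 0.65 at 2 h to -0.36 and -0.26 at 6 h, so their means hide values of both signs.

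Among the 9 genes of polymerase III alone, 3 fell and 0 rose with M-factor, and 2 fell and 0 rose with P-factor. The fallen were 33.3% with M-factor, against 23.2% of all genes, and 22.2% with P-factor, near the 18.3% of all genes. Their medians were -0.28 and -0.22. The lowest was rpc11, the gene of the RNA cleavage and termination subunit. Its log2 ratios were -3.14, -2.06 and -1.92 with M-factor, against -0.92, -1.09 and -0.68 with P-factor, and the courses did not overlap. It fell by 2.38 ± 0.23 with M-factor (limma adjusted p = 9.44e-05), 5.19-fold, which was the lowest mean of the 28 subunit genes. With P-factor it fell by 0.90 (limma adjusted p = 0.0153), 1.86-fold, which did not pass without the 2 h (limma adjusted p = 0.0627) or 4 h P-factor array (limma adjusted p = 0.104). RefSeq places rpc11 wholly within a non-coding RNA gene, SPNCRNA.2517, which had no spots among the genes tested.

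The second largest subunit gene, rpc2, had -0.92, -0.67 and -0.66 with M-factor, against -0.23, -0.43 and -0.33 with P-factor. These means of spots were all below 0 and did not overlap between the courses. Single spots did overlap, reading -0.88 and 0.02 at 4 h of P-factor and -0.39 and -0.92 at 6 h of M-factor. At 2 h of P-factor rpc2 had 1 spot only. It fell by 0.75 ± 0.14 with M-factor (limma adjusted p = 0.00234), and its mean with P-factor was -0.33 (limma adjusted p = 0.0917). Rpc82 belongs, with Rpc34 and Rpc31, to a subcomplex of polymerase III that acts in initiation, and rpc82 had -0.39, -0.47 and -1.16 with M-factor, against -0.26, -0.78 and -0.72 with P-factor. It fell by 0.67 (limma adjusted p = 0.0168) and 0.59 (limma adjusted p = 0.0363), and the first call was lost without the 6 h M-factor array (limma adjusted p = 0.105). The second was lost without the 4 h (limma adjusted p = 0.205) or 6 h P-factor array (limma adjusted p = 0.18). Its partner rpc31 had values on both sides of 0, with means of 0.12 (limma adjusted p = 0.56) and -0.07 (limma adjusted p = 0.761).

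The largest subunit gene, rpc1, stayed within -0.11 and 0.07 on the M-factor arrays, and within -0.24 and 0.04 on the P-factor arrays, with means of -0.03 (limma adjusted p = 0.873) and -0.13 (limma adjusted p = 0.499). The stalk gene rpc17 was near 0 with M-factor, at -0.06, 0.10 and -0.06, and below 0 on each P-factor array, at -0.15, -0.19 and -0.32, where its mean of -0.22 did not pass (limma adjusted p = 0.231). With P-factor rpc17 had 1 spot only at 2 h, and its spots read 0.44 and -0.82 at 4 h and 0.05 and -0.68 at 6 h. Its partner rpc25 went from 0.67 to -0.64 between 2 and 6 h of M-factor and from 0.25 to -0.73 with P-factor, lower at each later time in both courses, with 1 array at each time. The TFIIF-like pair rpc53 and rpc37 had means of -0.34 and -0.28 with M-factor, or 0.14 and 0.10 with P-factor, and neither passed, while their counterparts rpa34 and rpa49 of polymerase I did. For rpc53 the mean with M-factor passed when the 2 h M-factor array was left out (limma adjusted p = 0.0363).

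Polymerases I and III have 2 platform subunits in common, which take the place of Rpb3 and Rpb11. The gene rpc40 had log2 ratios of -2.35, -3.42 and -1.15 with M-factor, of which the 4 h value was the lowest of any subunit gene on any array, and -0.91, -1.21 and -0.84 with P-factor. It fell by 2.31 ± 0.33 with M-factor (limma adjusted p = 0.00071), 4.94-fold, and by 0.99 with P-factor (limma adjusted p = 0.0436), 1.98-fold. The call with P-factor was lost without the 2 h M-factor array or any 1 of the P-factor arrays (limma adjusted p = 0.052 to 0.197). Its partner rpc19 had -0.40, -1.07 and -1.10 with M-factor, all below 0, and 0.49, 0.54 and 0.19 with P-factor, all above 0. With P-factor rpc19 had 1 spot only at 2 h, and its spots read 0.32 and 0.75 at 4 h and -0.04 and 0.42 at 6 h. It fell by 0.86 ± 0.17 with M-factor (limma adjusted p = 0.00363), 1.81-fold, while its mean of 0.41 with P-factor did not pass (limma adjusted p = 0.0969). That mean passed when the P-factor course was fitted alone (limma adjusted p = 0.0359) and when the 2 h M-factor array was left out (limma adjusted p = 0.0427). The platform pair of polymerases I and III thus lay at -2.31 and -0.86 with M-factor, and that of polymerase II, rpb3 and rpb11, at 0.67 and -0.47.

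The genes of the 5 subunits common to all polymerases moved in both directions. With M-factor 2 rose and 2 fell, 40.0% each against 24.1% and 23.2% of all genes. With P-factor 1 rose and 1 fell, a single gene being 20.0% of them, against 18.1% and 18.3% of all genes. The medians of the common subunit genes were -0.10 and -0.10. The highest was rpb8, with 1.63, 1.55 and 1.20 with M-factor, against 1.19, 0.81 and 0.94 with P-factor. It rose by 1.46 ± 0.15 with M-factor (limma adjusted p = 0.000135), 2.76-fold, and by 0.98 with P-factor (limma adjusted p = 0.00167), 1.97-fold. Both calls still passed when any single time course array was left out, as did those of rpa34.

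The lowest of the common subunits with M-factor was rpb5, which encodes a subunit that touches the DNA ahead of the active site. It had -1.31, -1.48 and -0.83 with M-factor, against -0.02, -0.17 and -0.12 with P-factor, below and near 0. It fell by 1.21 ± 0.16 with M-factor (limma adjusted p = 0.000466), 2.31-fold, and had -0.10 with P-factor (limma adjusted p = 0.646). Part of rpb5 overlaps atg15 in the annotation, and the spots of atg15 rose by 1.33 (limma adjusted p = 0.000753) and 0.85 (limma adjusted p = 0.00963), in the direction opposite to rpb5 with M-factor. Its part in the values of rpb5 was not tested.

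For rpb6 the log2 ratios were -1.09, 0.02 and -0.78 with M-factor, where the 4 h array stood near 0, and -1.04, -0.65 and -1.07 with P-factor. It fell by 0.62 with M-factor (limma adjusted p = 0.0375) and by 0.92 with P-factor (limma adjusted p = 0.0098), 1.89-fold. The first call was lost without the 2 h or 6 h M-factor array or any 1 P-factor array (limma adjusted p = 0.051 to 0.2), and the second without the 2 h (limma adjusted p = 0.0525) or 6 h P-factor array (limma adjusted p = 0.0674). The gene rpb10, for a small zinc-binding subunit, had 0.30, -0.21 and -0.40 with M-factor, against -0.17, -0.74 and -0.57 with P-factor. Its mean of -0.49 with P-factor (limma adjusted p = 0.0576) passed with the time point as a block (limma adjusted p = 0.0253) and without the 2 h M-factor array (limma adjusted p = 0.0323). The gene rpc10, also called rpb12 and likewise for a small zinc-binding subunit, had 0.31, 0.58 and 0.34 with M-factor, against -0.23, 0.02 and 0.25 with P-factor. Its rise by 0.41 with M-factor (limma adjusted p = 0.0483) was lost when any 1 of the 6 arrays was left out (limma adjusted p = 0.0521 to 0.177).

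**Figure D2:**
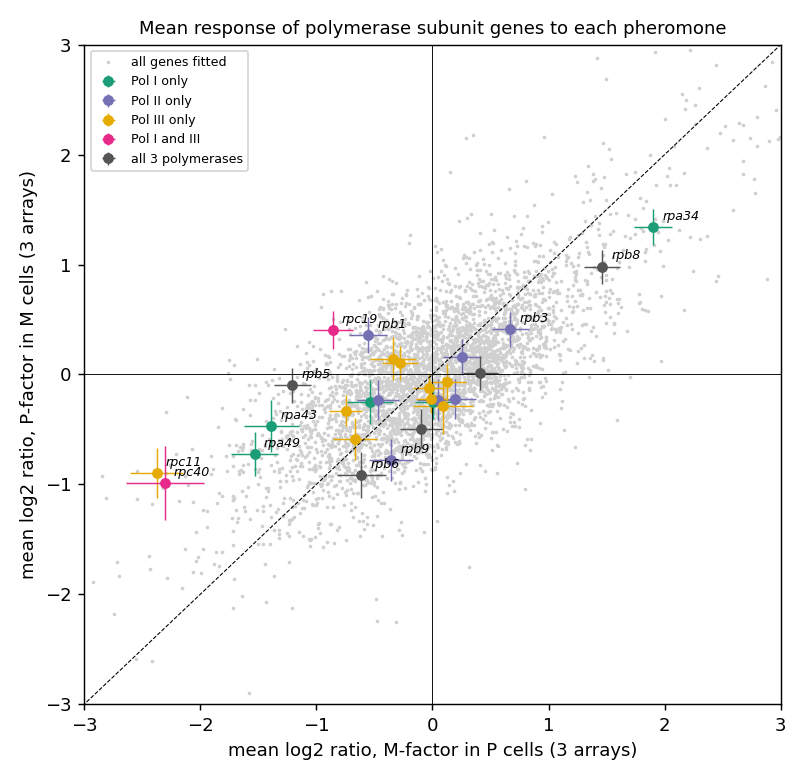
Each point is a gene, with its mean log2 ratio over the 3 M-factor arrays on the x axis and over the 3 P-factor arrays on the y axis, subunit genes coloured by polymerase with bars of 1 SE of the fit, and all genes within the axes in grey. Both rpa34 and rpb8 sit in the upper right, rpc11 and rpc40 lie far to the left at about -0.9 to -1.0 with P-factor, and rpc19 and rpb1 lie left of 0 but above it.

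Ordered by role instead of by enzyme, the members of a role were not alike either. The 3 cleavage subunits were all below 0 in the mean with both pheromones, with medians of -0.54 (M-factor) and -0.78 (P-factor), where rpa12 and rpc11 fell with M-factor and rpb9 and rpc11 with P-factor. The 5 largest and second largest subunits had medians of -0.03 and -0.23, and only rpb1 and rpc2 fell, with M-factor. Of the 5 stalk genes only rpa43 fell, with M-factor, and their medians were 0.09 and -0.22. The 4 platform genes spanned -2.31 to 0.67 with M-factor and -0.99 to 0.41 with P-factor, and the 4 TFIIF-like genes -1.53 to 1.90 and -0.72 to 1.34.

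The difference between the pheromones was tested in the same fit, as the mean with P-factor minus that with M-factor. It passed for 3 of the 28 subunit genes, all higher with P-factor, which was 10.7% of them against 2.56% of all genes in that direction and 4.64% in either direction. For rpc11 the difference was 1.48 ± 0.32 (limma adjusted p = 0.0376), for rpc19 1.26 ± 0.25 (limma adjusted p = 0.0272) and for rpb5 1.11 ± 0.23 (limma adjusted p = 0.0308). With the time point as a block 5 genes passed, the further ones being rpa43, with a difference of 0.92 (limma adjusted p = 0.0494), and rpb1, with 0.91 (limma adjusted p = 0.0494). In that fit 6.67% of all genes passed. Without the block rpa43 and rpb1 had limma adjusted p = 0.122 and 0.0555.

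These calls rest on few arrays, as none of the 28 genes passed without the 4 h M-factor array or when any 1 of the P-factor arrays was left out. The share of all genes that passed also fell, from 4.64% to 1.15% without the 4 h M-factor array. It was 0.318% to 0.464% when any 1 of the P-factor arrays was left out. Leaving out those arrays in turn gave limma adjusted p = 0.0612 to 0.139 for rpc11 and 0.0706 to 0.139 for rpb5. For rpc19 the call was also lost without the 6 h M-factor array, over a range of limma adjusted p = 0.0516 to 0.139. The differences themselves stayed between 0.97 and 1.64 for these genes in those fits. The larger differences that did not pass were those of rpc40 at 1.32 ± 0.47 (limma adjusted p = 0.119), which passed without the 6 h M-factor array (limma adjusted p = 0.0259), rpa43 and rpb1, already given, and rpa49 at 0.81 (limma adjusted p = 0.114).

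Read array by array, 6 genes (rpa49, rpb1, rpb5, rpc11, rpc19, rpc2) had all P-factor values above all M-factor values, which was 21.4% of the subunit genes against 16.1% of all genes. The reverse order held for 4 genes (rpa34, rpb8, rpc10, rpc17), or 14.3% against 17.1%. Both orders are of means of spots, and single spots, as for rpc2 and rpc17, did not always keep them. The mean was farther from 0 with M-factor for 19 of the 28 genes, and for 58.6% of all genes. The sign was the same on the 3 arrays of a course for 17 genes with M-factor and 19 with P-factor. The share over all genes was not counted, and the arrays of a course share their 0 h RNA, so nothing is read from these counts.

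**Figure D3:**
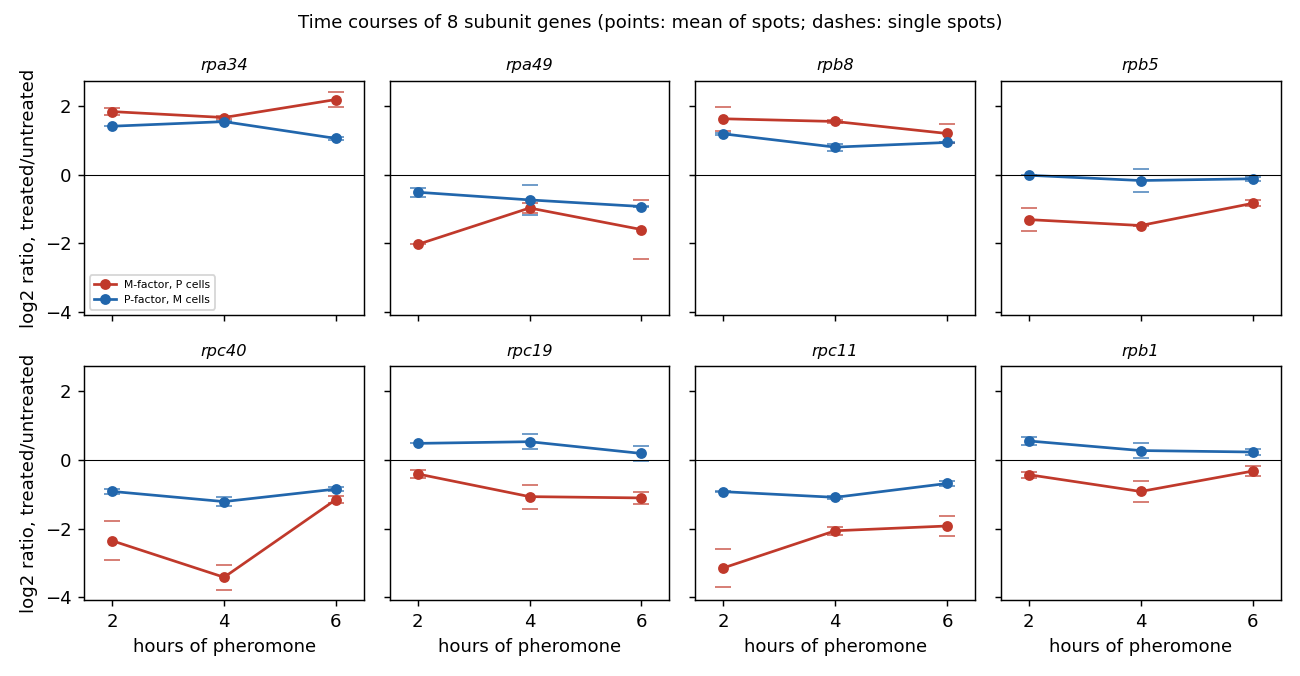
The log2 ratio of treated over untreated RNA (y axis) is plotted against hours of pheromone (x axis) for 8 subunit genes, with points for the mean of the spots, dashes for single spots, red for M-factor and blue for P-factor. The courses of rpa34 and rpb8 stay above 0, rpc40 with M-factor goes from -2.35 to -3.42 and back to -1.15, and for rpc19 and rpb1 the red line lies below 0 and the blue line above it.

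Several of the called genes had moved by the first time point. At 2 h of M-factor rpa34, rpb8, rpa49, rpc11, rpc40, rpb5 and rpb6 already differed from 0 by more than 1. The share of all genes past that limit was not counted, so nothing is read from their number. The value of rpc11 was lower at 2 h (-3.14) than at 4 h (-2.06) or 6 h (-1.92). By contrast rpa43 went from -0.64 at 2 h to -1.84 at 4 h, and rpc19 from -0.40 to -1.07. With P-factor the median of the subunit genes was -0.07, -0.20 and -0.32 at 2, 4 and 6 h, and with M-factor it was -0.09, -0.13 and -0.34. There was 1 array at each time and the M-factor array of 2 h had its dyes the other way round, so single steps in time have no replicate.

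The arrays of M over P cells, 1 before treatment and 1 after 6 h, gave small ratios for all 29 genes with spots. No subunit gene passed 1.5-fold on either array, where 2.46% of all genes did before treatment and 1.03% after 6 h. The log2 ratios ran from -0.48 (rpc40) to 0.27 (rpc31) before treatment and from -0.30 (rpb4) to 0.26 (rpc2) after 6 h. They lay below 0 for 20 and 19 of the 29 genes, against 53.5% and 55.4% of all genes. The lowest before treatment were rpc40 (-0.48 untreated and -0.23 after 6 h), rpb8 (-0.44 untreated and -0.21 after 6 h), rpc10 (-0.39 untreated and -0.22 after 6 h), rpc11 (-0.37 untreated and -0.03 after 6 h) and rpc19 (-0.32 untreated and -0.19 after 6 h). For rpc34, the third subunit of the initiation subcomplex of polymerase III, they were -0.04 untreated and 0.00 after 6 h.

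The step between these arrays can be set beside the time courses, whose difference at 6 h measures the same quantity through the 0 h references. For rpc11 the ratio of M over P cells was higher on the 6 h array than on the untreated array by 0.34, for rpc19 by 0.12 and for rpb5 by 0.13. At 6 h the time courses differed by 1.24, 1.30 and 0.72 for these genes. For these genes, picked by their called difference, the direction was the same and the size several times smaller on the direct arrays. Other genes varied, with 0.25 beside 0.305 for rpc40, 0.05 beside 0.96 for rpa43 and -0.02 beside 0.37 for rpa12. The log base of both direct arrays was taken as natural log but is not settled. The cause of the gap in size was not tested.

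**Figure D4:**
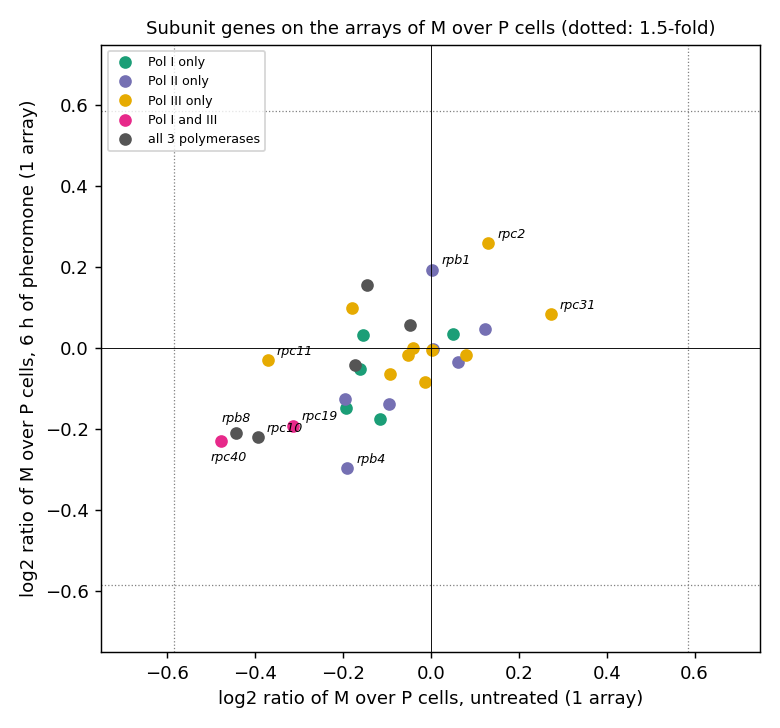
Each of the 29 subunit genes with spots is plotted by its log2 ratio of M to P cells on the untreated array (x axis) and on the array after 6 h of pheromone (y axis), coloured by polymerase, with dotted lines at 1.5-fold. All points lie inside the dotted lines, and rpc40, rpb8, rpc10, rpc11 and rpc19 have the lowest values before treatment.

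The annotation limits the reading of further members, since the probes are blind to strand. All 29 genes with spots overlap some other gene in the RefSeq table, 10 of them a protein-coding gene, and rpa34, rpa49, rpb7 (in tcb3) and rpc17 (in mpa1) lie wholly within one. The spots of tcb3 gave means of -0.18 and 0.58, and those of mpa1 -0.54 and 0.18, beside 0.26 and 0.16 for rpb7 and -0.01 and -0.22 for rpc17. Non-coding RNA genes hold the whole of rpa12, rpb9, rpc11 and rpc2. The values of all these genes are therefore uncertain, and the part of the neighbours was not tested.

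The factors that work with the polymerases moved in both directions. Of the 7 polymerase I factors tested, 1 rose and 1 fell with M-factor, while 3 rose and 2 fell with P-factor, with medians of 0.06 and 0.44. With M-factor these were 14.3% each, against 24.1% and 23.2% of all genes. With P-factor they were 42.9% and 28.6%, against 18.1% and 18.3%, on few genes. The initiation factor gene rrn3 had -1.57, -2.57 and -1.11 with M-factor, against -0.01, -0.17 and 0.06 with P-factor. It fell by 1.75 ± 0.24 with M-factor (limma adjusted p = 0.000547), beside -0.04 with P-factor (limma adjusted p = 0.909). The difference of 1.71 passed (limma adjusted p = 0.0278), but not when any 1 of the P-factor arrays was left out (limma adjusted p = 0.0888 to 0.129). A further subunit of polymerase I that the name rule leaves out, ker1, had 0.23 with M-factor (limma adjusted p = 0.287) and fell by 0.60 with P-factor (limma adjusted p = 0.022), a call lost without the 4 h or 6 h P-factor array (limma adjusted p = 0.124 to 0.149). The upstream activating factor gene spp27 rose by 0.49 (limma adjusted p = 0.0247) and 0.83 (limma adjusted p = 0.00341), the first not without the 4 h or 6 h M-factor array (limma adjusted p = 0.0737 to 0.111). The HMG-box gene hmo1 fell by 0.75 with P-factor (limma adjusted p = 0.00543), though not without the 4 h or 6 h P-factor array (limma adjusted p = 0.0533 to 0.055), and its mean of -0.41 with M-factor (limma adjusted p = 0.0512) passed with the time point as a block (limma adjusted p = 0.0378).

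Of the 6 polymerase III factors, 1 rose and 1 fell with M-factor and none passed with P-factor, with medians of 0.05 and -0.11. A single gene is 16.7% of them, and of all genes 24.1% rose and 23.2% fell with M-factor, against 18.1% and 18.3% with P-factor. The TFIIIC subunit gene sfc4 rose by 0.58 (limma adjusted p = 0.0124), a call lost without the 4 h M-factor array (limma adjusted p = 0.0653). The TFIIIC subunit gene sfc9 fell by 0.77 (limma adjusted p = 0.00948), lost without the 6 h M-factor array (limma adjusted p = 0.0574). The TFIIIB subunit gene bdp1 had 0.44 and 0.48, the latter passing with the time point as a block (limma adjusted p = 0.0488), and maf1, a repressor of polymerase III, had 0.09 and -0.49.

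Of the 28 general factors of polymerase II, 8 rose and 6 fell with M-factor, while 3 rose and 2 fell with P-factor, with medians of -0.01 and -0.11. The shares with M-factor, 28.6% and 21.4%, were near those of all genes (24.1% and 23.2%), and those with P-factor were 10.7% and 7.14%, against 18.1% and 18.3%. With M-factor sua7 (TFIIB) rose by 1.08 (limma adjusted p = 0.00254), mcs6 (the kinase of TFIIH) by 1.36 (limma adjusted p = 0.00085), and tfb4 (TFIIH) fell by 1.20 (limma adjusted p = 0.00152), and these calls still passed when any single array was left out. The TFIID gene taf4 fell by 1.19 (limma adjusted p = 0.000299) and 0.65 (limma adjusted p = 0.00883), the second not without the 4 h or 6 h P-factor array (limma adjusted p = 0.0503 to 0.08). The TFIID gene taf8 moved in opposite directions, with -0.71, -0.41 and -0.16 with M-factor, against 0.49, 0.50 and 0.54 with P-factor. It fell by 0.43 (limma adjusted p = 0.0406) and rose by 0.51 (limma adjusted p = 0.0265), with a difference of 0.94 (limma adjusted p = 0.0406). These calls of taf8 were lost without most single arrays (limma adjusted p = 0.0568 to 0.178 with M-factor, 0.0838 to 0.133 with P-factor and 0.0534 to 0.159 for the difference). For mcs6 the difference was -1.21 (limma adjusted p = 0.0494), lost without the 4 h or 6 h M-factor array or any 1 P-factor array (limma adjusted p = 0.0778 to 0.159). For tfb4 the difference was 1.05 (limma adjusted p = 0.0669), and it passed with the time point as a block (limma adjusted p = 0.0494).

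Of 18 elongation factors and enzymes of the C-terminal domain, 3 rose and 6 fell with M-factor, while 1 rose and 4 fell with P-factor, with medians of -0.23 and -0.15. The fallen were 33.3% and 22.2%, against 23.2% and 18.3% of all genes. The phosphatase gene fcp1 rose with both, by 0.57 (limma adjusted p = 0.00798) and 0.93 (limma adjusted p = 0.00122), and spt5 fell with both, by 0.71 (limma adjusted p = 0.0079) and 0.94 (limma adjusted p = 0.0033). The histone chaperone gene spt6 fell by 0.86 (limma adjusted p = 0.00762) and 0.61 (limma adjusted p = 0.043), the second not when any 1 P-factor array was left out (limma adjusted p = 0.0617 to 0.26). The Paf1 complex gene tpr1 fell by 0.48 (limma adjusted p = 0.0459) and 1.02 (limma adjusted p = 0.00251), the first not without the 4 h or 6 h M-factor array or any 1 P-factor array (limma adjusted p = 0.0604 to 0.248). With M-factor prf1 fell by 0.93 (limma adjusted p = 0.00209) and the FACT subunit gene pob3 by 1.04 (limma adjusted p = 0.00105).

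Of 17 genes of the Mediator, the coactivator that bridges activators and polymerase II, 6 rose and 2 fell with M-factor, while 4 rose and 1 fell with P-factor. The risen were 35.3% with M-factor, against 24.1% of all genes, and 23.5% with P-factor, against 18.1%. Their medians were 0.35 and 0.21. With both pheromones srb4 rose, by 0.84 (limma adjusted p = 0.00118) and 0.52 (limma adjusted p = 0.0162), med1 by 0.66 (limma adjusted p = 0.00985) and 0.90 (limma adjusted p = 0.00342), and med31 by 0.47 (limma adjusted p = 0.0391) and 0.82 (limma adjusted p = 0.00483). Of these the calls of srb4 with P-factor (limma adjusted p = 0.0726 to 0.0963 without 1 P-factor array) and of med31 with M-factor (limma adjusted p = 0.0543 to 0.187 without any 1 array but the 4 h M-factor array) were lost, and that of med1 with M-factor without the 4 h M-factor array (limma adjusted p = 0.0578). The gene med7 fell by 0.55 (limma adjusted p = 0.0153) with M-factor and rose by 0.57 (limma adjusted p = 0.0186) with P-factor, with a difference of 1.12 (limma adjusted p = 0.0267). Its calls were lost without the 2 h or 4 h M-factor array (limma adjusted p = 0.0653 to 0.0671), without any 1 P-factor array (limma adjusted p = 0.0752 to 0.104), and for the difference without the 4 h M-factor array or any 1 P-factor array (limma adjusted p = 0.0618 to 0.139). With M-factor srb8 rose by 0.70 (limma adjusted p = 0.0212), though not without the 4 h M-factor array (limma adjusted p = 0.125).

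Of 5 genes for the assembly and nuclear import of polymerases, rtr1 rose by 0.49 with M-factor (limma adjusted p = 0.0186), not without the 4 h M-factor array (limma adjusted p = 0.0821), and iwr1 by 0.66 with P-factor (limma adjusted p = 0.0133), not without the 4 h or 6 h P-factor array (limma adjusted p = 0.0838 to 0.0914). The others named by the rule, fet5 and gpn2, had means of -0.47 and 0.38 with M-factor, or 0.04 and 0.32 with P-factor, and fet5 passed with M-factor with the time point as a block (limma adjusted p = 0.0319). The mitochondrial RNA polymerase gene rpo41 fell by 0.82 with M-factor (limma adjusted p = 0.00654) and had -0.24 with P-factor (limma adjusted p = 0.348).

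Beside these, the genes of the products that polymerases I and III serve can be set by count. Of 107 cytosolic ribosomal protein genes, 8 rose and 35 fell with M-factor, with a median of -0.46, and 8 rose and 30 fell with P-factor, with a median of -0.20. Of 86 ribosome biogenesis genes, 5 rose and 58 fell with M-factor, with a median of -0.70, and 6 rose and 38 fell with P-factor, with a median of -0.42. The fallen were 32.7% and 28.0% of the first list and 67.4% and 44.2% of the second, against 23.2% and 18.3% of all genes. The 28 subunit genes lay between these lists and the bulk of the genes with M-factor, at -0.31, and close to the ribosomal protein genes with P-factor, at -0.23. These counts are a description, with no test between the lists.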

How the data were processed

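RNA of 8 comparisons was measured on 2-channel cDNA arrays of PCR products, 1 array per comparison. Spots were quantified by the authors in Imagene 4.2, and lowess normalisation was done in GeneSpring. For the M-factor arrays of 2 and 4 h the authors deposited channel 1 over channel 2 as log2 ratios. For the other 6 arrays they deposited that ratio, after the same lowess step, as natural log values, which were converted to log2. No source used here states the bases. Those of the time course arrays were found by recomputing mean fold changes that the study lists for induced genes. Of these 152 of 155 (M-factor) and 124 of 155 (P-factor) matched, against at most 13 and 20 with any other choice. The untreated array of M over P cells was not checked in this way, and for that at 6 h no such list exists. Natural log is likely for both but not settled. Spot intensities were not used here, signal over background is therefore unknown, and precision is limited by how few arrays there are. A ratio of 0.01 was the floor, reached by 72 spots at 4 h of P-factor and 2 at 6 h of M-factor.

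Of 11520 spots, the 9522 with 1 gene symbol were used, and symbols were updated through the RefSeq table (assembly ASM294v3). Spots of a gene were averaged. Means over the 3 arrays of a course, and their difference, were tested in limma 3.58.1 (lmFit, then eBayes; R 4.3.3) on the 4094 genes with all 6 values, with 1 mean per pheromone and a shared spread, adjusted by Benjamini-Hochberg at 0.05. The script was tested on simulated data. Both courses have arrays of 2, 4 and 6 h by their labels, and deviations of same-time arrays correlated with r of 0.35, 0.105 and 0.349 at 2, 4 and 6 h, against at most 0.037 otherwise, so the time point pairs the arrays and serves as a block in an alternative. M over P cells were compared on single arrays without a test.

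The subunit genes, the lists and the tests were chosen with earlier results of these data known. All subunit genes are named, with, of the factor lists, genes called with both pheromones and up to 4 per list with the largest means. Each gene was set to a polymerase and a role by hand from textbook knowledge, since the RefSeq table used here gives no product names. Alternatives changed the block, centring, log base, spots, missing values, moderation, shared spread, test, size of change, floor and arrays used. For the named factors the same alternatives were chosen after seeing the data. Python 3.11.15 with pandas 2.3.3, numpy 2.4.6 and matplotlib 3.10.9 served for all else.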

Additional observations from a re-analysis of the deposited data

Results flagged for a closer look

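The difference between the pheromones, P-factor minus M-factor on the log2 scale, passed limma's test for 3 subunit genes. It was 1.479 for rpc11, the cleavage subunit of polymerase III, 1.263 for rpc19, a platform subunit of polymerases I and III, and 1.106 for the common subunit gene rpb5. In each of these genes every P-factor array lay above every M-factor array. The ratio of M over P cells went, between the untreated and the 6 h array, from -0.37 to -0.03 for rpc11, from -0.32 to -0.19 for rpc19 and from -0.17 to -0.04 for rpb5. Among the named factors the difference passed for rrn3 (1.71), the initiation factor of polymerase I, for the TFIID gene taf8 (0.938) and the Mediator gene med7 (1.116), and for mcs6, the kinase of TFIIH, at -1.206. None of these 7 differences passed in all fits that left out 1 array.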

How the results depend on the processing

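No called value of a subunit gene or named factor changed sign under any alternative run. Of the 28 subunit genes, 15 were called with M-factor, 8 with P-factor and 3 for the difference. Restricted to genes whose spots differed by an SD under 0.5, which left 11 subunit genes, the counts were 7, 1 and 3. With the values as deposited they were 16, 3 and 0. Tested against a change of more than 1.5-fold they were 7, 1 and 0. By the methods' t-test they were 0, 0 and 0 after Benjamini-Hochberg, with 7, 9 and 5 at an unadjusted p under 0.05. With the time point as a replicate block they were 15, 10 and 5, and with the means centred on the array medians 14, 8 and 3. Leaving out each array in turn gave 11 to 13 with M-factor, 3 to 10 with P-factor and 0 to 4 for the difference. Without the 2 h M-factor array, the only time course array with the other dye order, they were 13, 10 and 4. Each course fitted alone gave 11 and 12, and has no test of the difference.

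Over all 4094 genes 1933 were called with M-factor, 1491 with P-factor and 190 for the difference, or 47.2%, 36.4% and 4.64%. The limit on spot SD left 1291 genes, of which 602, 497 and 55 were called, or 46.6%, 38.5% and 4.26%. The counts were 1985, 689 and 72 as deposited, and 421, 208 and 10 against 1.5-fold. By the methods' t-test they were 5, 6 and 0, at 1168, 1507 and 707 unadjusted. With the time point as a block 52.6%, 41.8% and 6.67% of all genes were called, and with centring 47.0%, 35.9% and 4.64%. With trend and robust moderation 327 differed between the pheromones. Leaving out each array gave 1526 to 1857 with M-factor, 547 to 1665 with P-factor and 13 to 295 for the difference. These were 37.3% to 45.4%, 13.4% to 40.7% and 0.318% to 7.21% of all genes. Without the 2 h M-factor array the shares were 41.5%, 40.7% and 7.21%. Each course fitted alone gave 34.9% with M-factor and 47.8% with P-factor.

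The medians by polymerase moved mainly with the limit on spot SD, which left few genes in a class, and rpc19 alone for polymerases I and III. With M-factor they then were 0.005 (polymerase I), -0.512 (II), -0.031 (III) and -0.857 (I and III), and with P-factor 0.062 (II), 0.406 (I and III) and -0.044 (common). The mean in place of the median gave -0.471 for polymerase III with M-factor and -0.077 for polymerase II with P-factor. As deposited, the medians with P-factor were -0.202 (I and III) and -0.07 (common). Leaving out arrays gave -0.217 to 0.153 (II) and -0.362 to -0.081 (III) with M-factor, and -0.221 to -0.021 (II) and -0.143 to -0.066 (common) with P-factor. On the untreated array of M over P cells 4 subunit genes passed a log2 ratio of 0.32 in either direction, a limit below that of 1.5-fold. The share of all genes past it was not counted. The cause of these shifts was not tested.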
